A study of Mus musculus with 2 samples.

Results

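Fibrillar collagen is folded and modified in the endoplasmic reticulum (ER) before it leaves in COPII carriers, and 39 genes of this route were compared between superficial zone cells of wild-type mice and of mice lacking Prg4. The 39 genes were chosen by name for their role in collagen folding, general ER folding, the regulation of ER capacity, or export, and all 39 were found among the 15719 genes named in the deposited table. Superficial zone cells are the flattened chondrocytes at the joint surface, and Prg4 encodes lubricin, the proteoglycan they secrete. The WT group and the Prg4KO group each had 1 library, from C57BL/6 mice at postnatal day 5. Both groups shared the same isolation: cartilage of the femur ends and the upper tibia cleared of ligament, tendon and synovium, trypsin (0.25%) for 1 hour, then 173 U/mL of type I collagenase for 1.5 hours, plating on fibronectin, and sequencing of polyadenylated RNA. The sources used here do not say how the Prg4 allele was made, how many mice of which sex were pooled, or how long the cells were cultured.

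A procollagen chain enters the ER while it is being made, and its prolines are hydroxylated before 3 chains wind into a triple helix. The collagen-specific chaperone HSP47, encoded by Serpinh1, binds the wound helix, while general chaperones such as BiP handle most secreted proteins and are induced when unfolded protein builds up. COPII carriers form at ER exit sites from the GTPase SAR1, an inner layer of SEC23 and SEC24 and an outer cage of SEC13 and SEC31, and procollagen, which is long and rigid, also needs the exit site receptor TANGO1. Cartilage and bone are the tissues in which loss of these proteins is best known to show: human brittle bone disease arises from several of the collagen folding genes, and a craniofacial and skeletal disorder from SEC23A.

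Values are FPKM, the deposited level per transcript length and library size, and expected counts, the estimated reads of a gene. A log2 ratio here is that of the Prg4KO FPKM plus 1 over the WT FPKM plus 1, which understates the difference of low genes. A count ratio is the Prg4KO count over the WT count, each per library total, with a 95% exact interval that covers counting error only. With 1 library per genotype there is no replicate check and no test of genotype, so every difference describes these 2 libraries, and the spread between cultures is unknown. Every Prg4KO value rests on a re-pairing of the deposited Prg4KO rows with the gene names, in which all 39 genes were placed with a probability that rounds to 1.0.

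The libraries held 21619093 expected counts (WT) and 21392574 (Prg4KO). Prg4 had 54559 counts in WT and 6.15 in the Prg4KO library. Over the 6697 genes that reached FPKM 5 in both libraries the median log2 ratio was 0.13, so directions below are also given relative to that median. All 7 superficial zone markers were detected, with a summed FPKM of 1062 in WT and 307 in the Prg4KO library, and of 469 and 307 without Prg4. The 7 chondrocyte markers summed to 17663 and 20023, the 4 hypertrophic markers to 354 and 502, the 5 osteoblast markers to 19.6 and 32.7, and the 6 tendon and fibrous markers, type I and III collagen among them, to 18608 and 10639. None of those 6 lay above the all-gene median. Of the chondrocyte markers 5 lay above it, while Acan (527 and 436 FPKM) and Col2a1, most of that sum at 14594 and 15702, did not. Only Erg (9.78 and 12.6) of the superficial zone markers lay above it. The 5 macrophage markers summed to 43.2 and 57.3, the 3 osteoclast markers to 151 and 177, the 3 endothelial markers to 49.2 and 44.8 and the 4 muscle markers to 10.8 and 10.9. Most of the osteoclast sum was Ctsk, at 140.2 and 143 FPKM, while Acp5 had 10.2 and 32.3, a count ratio of 3.15. Of the plasma and B cell markers only Cd79a was listed, at 1.23 and 0.68, and Jchain and Mzb1, which mark antibody-secreting cells rich in these same chaperones, had no value used here. The part of the collected cell types in the results below was not tested, and in RNA of pooled cells, fewer cells of a type and less RNA per cell cannot be told apart.

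Most of the 39 genes were abundant. In the WT library 28 of them stood in the top decile of all genes by FPKM (37.8 or more), and 19 exceeded an FPKM of 100. The highest was Serpinh1 and the lowest Tmem38b. Together they took 1.80% of WT counts and 1.60% of Prg4KO counts. Of the 37 that reached FPKM 5 in either library, 0 were 2-fold higher and 0 were 2-fold lower, where 0.462% and 0.109% of the 7364 genes passing the same filter were, shares at which few or no calls would fall among 37 genes. With TMM factors, or with the 20 most abundant genes left out of the scaling, 1 of the 37 was 2-fold lower, Creb3l1. Of all genes passing the filter, 0.266% and 0.281% were 2-fold lower under these scalings. At a limit of 1.5-fold, chosen after the values were seen, 0 of the 37 were higher as deposited and 2 lower, Creb3l1 and Calr. The shares of the 7364 genes were 6.31% and 1.52%. As deposited, 18 of the 39 were higher and 21 lower in the Prg4KO library. Of the 6697 genes that reached FPKM 5 in both libraries, 4555 were higher and 2132 lower. Relative to the all-gene median, 11 lay above and 28 below, with a median of -0.15. The split of all genes past 2-fold depends on scaling: 81.0% of them were higher as deposited, 48.5% when medians were equalised, 54.8% when upper quartiles were, 42.4% with TMM factors and 41.2% when the 20 most abundant genes were left out of the scaling.

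**Figure D1:**
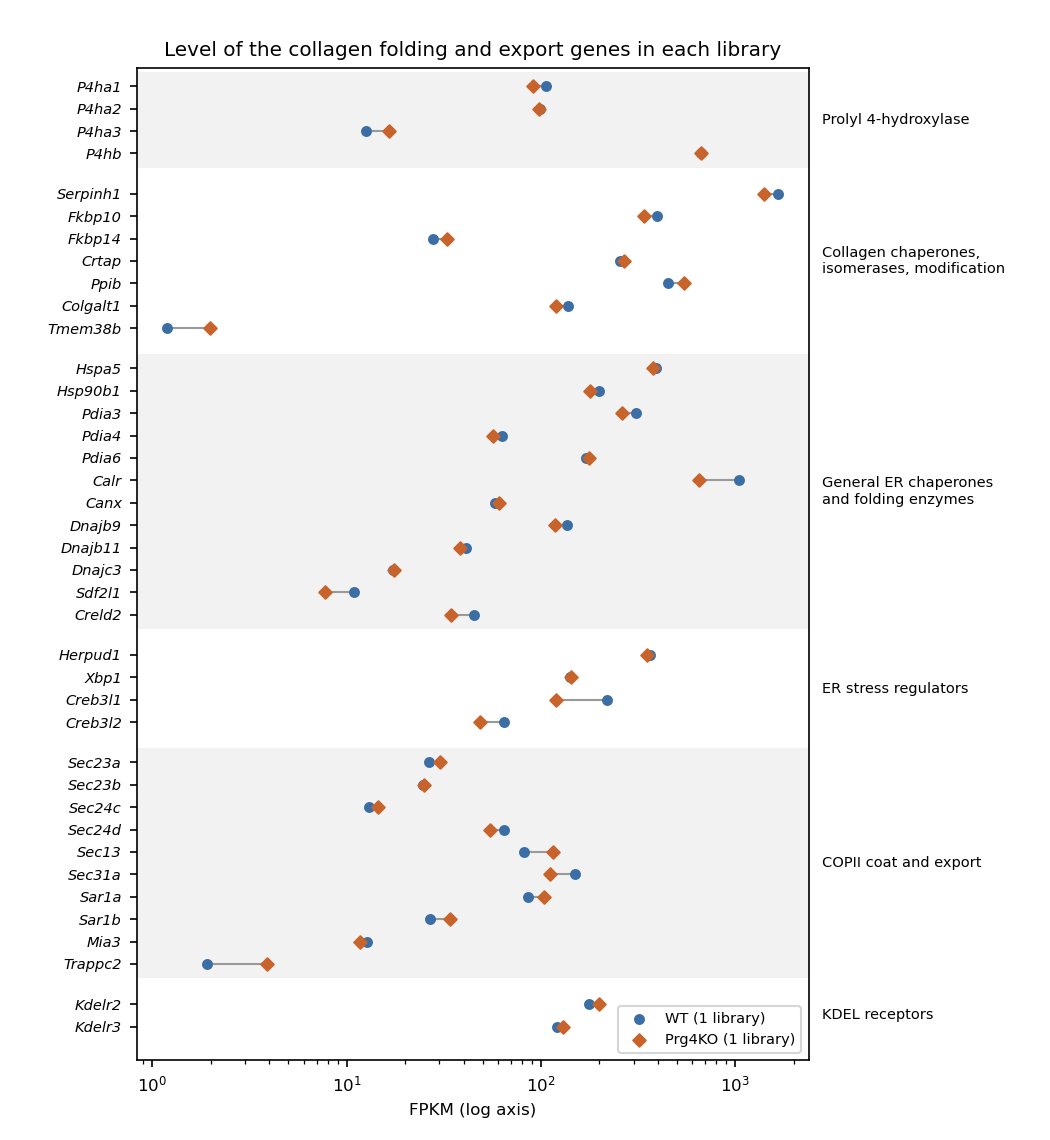
FPKM of each of the 39 genes in WT (circle) and the Prg4KO library (diamond), on a log axis and grouped by role, with 1 library per genotype and no error bars. Creb3l1, from 218 to 120, and Calr, from 1048 to 649, stand apart among the abundant genes, while Trappc2 and Tmem38b are far to the left of the rest in both libraries.

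Promoters of 8 of the 12 general chaperones, and that of Herpud1, carried a sequence block known from ER stress genes, while those of Pdia3, Pdia4, Dnajb9 and Sdf2l1 held none. The ER stress response element (ERSE) is read by the transcription factors ATF6 and XBP1 together with NF-Y, and its letters are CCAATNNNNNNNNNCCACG. A shorter form, ERSE-II, described at the Herpud1 gene in human, reads ATTGGNCCACG, and shares the CCACG block. Both strands of the RefSeq promoter windows on GRCm38.p6, from 250 bases before to 50 bases after a start, were searched for exact letters, and no promoter of the 39 genes held both forms. Windows were found for 35 of the 39 genes, all but Creb3l1, Fkbp10, Kdelr2 and Tmem38b. ERSE stood in 7 of the 35 (Hspa5, Hsp90b1, Calr, Canx, Pdia6, Dnajc3 and Creld2) and in 0.119% of all 32851 windows. ERSE-II stood in Herpud1 and Dnajb11, and in 0.0365% of all windows. The sites below are those of the chaperone gene in which ERSE is best known, of the genes with the lowest and the highest ratio among carriers, of Creld2, and of both ERSE-II carriers, each read on the strand of the motif with 12 flanking bases on either side and with the fixed letters in capitals.
Hspa5, chr2:34772013-34772055, plus strand: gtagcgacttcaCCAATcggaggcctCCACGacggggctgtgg
Calr, chr8:84847063-84847105, plus strand: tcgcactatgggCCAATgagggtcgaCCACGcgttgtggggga
Canx, chr11:50325788-50325830, minus strand: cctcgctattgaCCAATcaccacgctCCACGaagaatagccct
Creld2, chr15:88819508-88819550, minus strand: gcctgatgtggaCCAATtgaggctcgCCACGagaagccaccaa
Herpud1, chr8:94386365-94386399, plus strand: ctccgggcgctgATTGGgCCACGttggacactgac
Dnajb11, chr16:22857840-22857874, plus strand: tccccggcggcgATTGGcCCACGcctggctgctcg
The Hspa5 site began 65 bases before the gene start, the Calr site 162, the Canx site 145, the Creld2 site 126 and the Herpud1 site 52, while that of Dnajb11 began 7 bases after it. Hsp90b1 had 2 ERSE sites, at 212 and 107 bases before the start. A match describes the letters in the window and not use of the site. The 9 genes with either form all lay below the all-gene median, from -0.83 (Calr) to -0.06 (Canx) relative to it, with a median of -0.20. Of the 26 genes with neither, 17 lay below, with a median of -0.13. Apart from Herpud1, the carriers were general chaperones, and all 12 of that group lay below, with or without a site. Those of the group without one lay at -0.37 (Pdia3), -0.29 (Pdia4), -0.33 (Dnajb9) and -0.58 (Sdf2l1). Presence of a site therefore cannot be told apart from role here. Carriers outside the 39 genes that reached FPKM 5 in both libraries were few: 3 of 4 lay below the median for ERSE and 1 of 5 for ERSE-II.

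The 12 general ER chaperones and folding enzymes were all under the all-gene median, with a group median of -0.28 relative to it. As deposited, 9 of the 12 were lower in the Prg4KO library and 3 were higher by small amounts. The number under the all-gene median was 12 of 12 in each alternative processing that kept all of them, and 10 of 10 at a larger FPKM of at least 20. When the dependence of the ratios on transcript length and GC content (the length and GC trend) was taken out, the group median was -0.38. The summed FPKM of the group was 2484 in WT and 1979 in the Prg4KO library, and Calr made up much of that gap.

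Calr encodes calreticulin, the soluble lectin chaperone that holds calcium in the ER and retains glycoproteins until they fold. The gene lies on chromosome 8 from 84842088 to 84846931 (GRCm38). It had 43867 counts in WT (43457 to 44280) and 26917 in the Prg4KO library (26596 to 27241), a count ratio of 0.620 (0.611 to 0.630). Its FPKM was 1048 in WT, rank 57 of all genes, and 649 in the Prg4KO library, rank 125. The log2 ratio of -0.69 stood at percentile 0.657 of all genes, and it was -0.89 relative to the all-gene median once that trend was taken out. Canx, its membrane-bound relative calnexin, differed in the other direction as deposited, with an FPKM of 57.7 in WT and 60.7 in the Prg4KO library. The Calr level was therefore 18.2 times the Canx level in WT and 10.7 times in the Prg4KO library. Pdia3, the disulfide isomerase ERp57 that works with both lectin chaperones, had an FPKM of 309 in WT and 261 in the Prg4KO library, a log2 ratio of -0.24.

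The central chaperones BiP and GRP94 differed far less than Calr. Hspa5, which encodes BiP, the ER HSP70 that also binds the sensors of the unfolded protein response, lies on chromosome 2 from 34772090 to 34776529. It had 21402 counts in WT (21116 to 21691) and 20669 in the Prg4KO library (20388 to 20953), with FPKM 389 and 379 and a count ratio of 0.976 (0.958 to 0.995). Hsp90b1, which encodes GRP94, the ER HSP90, lies on chromosome 10 from 86690841 to 86705444. It had 11821 counts (11609 to 12036) and 10629 (10428 to 10833), with FPKM 198 and 179 and a count ratio of 0.909 (0.885 to 0.933). The level of Hspa5 over Hsp90b1 was 1.97 in WT and 2.11 in the Prg4KO library.

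The cochaperones and small folding factors spread over a wider range. Dnajb9, encoding the BiP cochaperone ERdj4, had an FPKM of 136 in WT and 119 in the Prg4KO library, and its ratio relative to all genes went from -0.33 to -0.62 with the length and GC trend removed. Dnajb11 (ERdj3) had 41.0 and 38.3 FPKM, and Dnajc3 (p58IPK), another BiP cochaperone, had 17.4 and 17.6. Sdf2l1, which binds ERdj3 and slows aggregation of its clients, was the lowest of this kind, with 258 counts in WT (227 to 291) and 182 in the Prg4KO library (157 to 210), a count ratio of 0.713 (0.586 to 0.865). It lies on chromosome 16 from 17130138 to 17132383, and its FPKM was 10.9 and 7.73 (log2 ratio -0.44). Creld2, an ER-resident protein induced by ER stress, had 45.1 and 34.5 FPKM, with a count ratio of 0.768 (0.706 to 0.834). Of the disulfide isomerases, Pdia4 had 62.9 and 56.5 FPKM, and Pdia6 170 and 177. The intervals of Dnajb11 (0.876 to 1.00) and Dnajc3 (0.951 to 1.08) reached or spanned 1, so no difference in count per library total was detectable for these at this depth.

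The 4 genes grouped as regulators of ER capacity, the degradation gene Herpud1 among them, also were all under the all-gene median. Their group median was -0.37, but their ratios were of unequal size. Creb3l1 had the lowest log2 ratio of all 39 genes as deposited. With the length and GC trend removed, Calr was lower, at -0.89 relative to all genes against -0.84 for Creb3l1. Creb3l1 encodes OASIS, a membrane-bound transcription factor of the ER that is cut free on stress and that drives Col1a1 transcription in mouse osteoblasts. The gene lies on chromosome 2 from 91982328 to 92024170. It had 10757 counts in WT (10555 to 10962) and 5876 in the Prg4KO library (5727 to 6028), a count ratio of 0.552 (0.535 to 0.570). Its FPKM was 218, rank 284 of all genes, and 120, rank 537. The log2 ratio of -0.85 stood at percentile 0.209 of all genes. It passed the 2-fold limit when libraries were scaled without the 20 most abundant genes or with TMM factors. There 0.281% and 0.266% of all genes were 2-fold lower. Creb3l2, encoding the OASIS relative BBF2H7, which drives Sec23a in mouse chondrocytes, had 64.5 FPKM in WT and 48.4 in the Prg4KO library. Its count ratio was 0.752 (0.720 to 0.786).

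The other pair of this group belongs to the general unfolded protein response. Xbp1, whose mRNA is spliced by the stress sensor IRE1, lies on chromosome 11 from 5520641 to 5525993. It had 6897 counts in WT (6735 to 7062) and 6877 in the Prg4KO library (6715 to 7041), with FPKM 141 and 142. Its count ratio of 1.01 (0.974 to 1.04) spanned 1, and gene totals do not separate spliced from unspliced Xbp1. Herpud1, a membrane protein of ER-associated degradation, had 365 FPKM in WT and 350 in the Prg4KO library, a count ratio of 0.960 (0.938 to 0.982). The members of this group near the collagen genes in function, Creb3l1 and Creb3l2, thus had lower ratios than Xbp1 and Herpud1. The count intervals cover counting error only, and this difference was not tested.

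**Figure D2:**
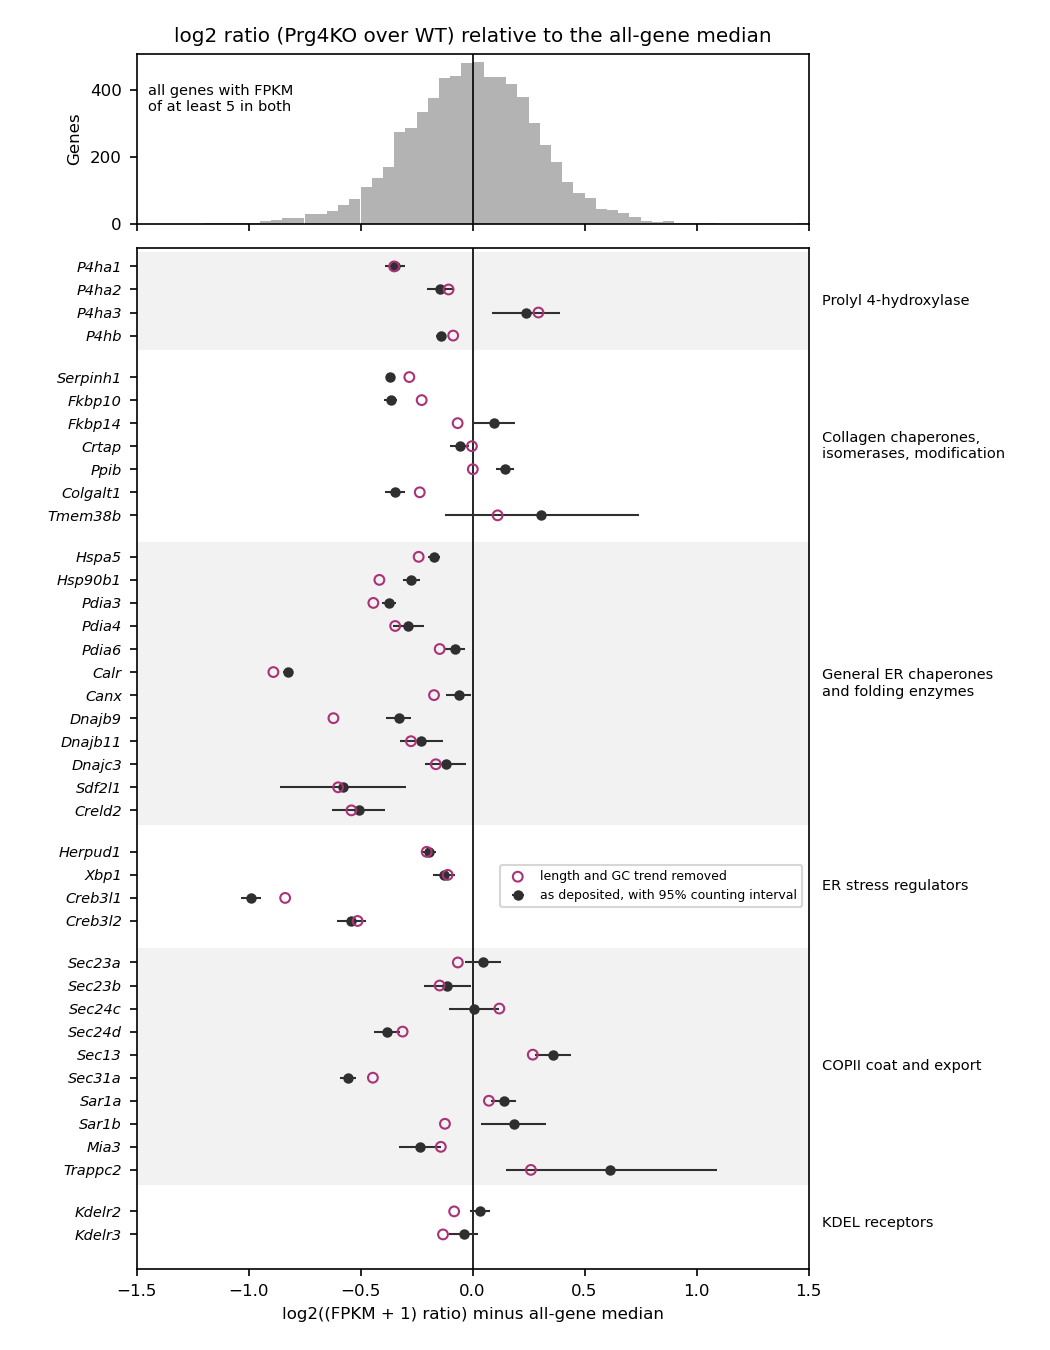
Log2 ratio (Prg4KO over WT, FPKM plus 1) of each gene minus the all-gene median, as deposited (filled, with lines of the width of the 95% counting interval of the count ratio) and without the length and GC trend (open), below the distribution over all genes that reached FPKM 5 in both libraries. All 12 general ER chaperones and all 4 genes grouped as ER stress regulators lie left of 0 in both forms, and COPII genes lie on both sides.

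Of the prolyl 4-hydroxylase genes, 3 of 4 lay below the all-gene median. The enzyme joins 2 catalytic alpha subunits with 2 copies of protein disulfide isomerase, the product of P4hb. P4hb, on chromosome 11 from 120560298 to 120573253, had 36771 counts in WT (36396 to 37149) and 36259 in the Prg4KO library (35887 to 36634), with FPKM 669 and 666. Its count ratio was 0.997 (0.982 to 1.01), so no difference per library total was detectable. P4ha1, the broadly expressed alpha subunit, lies on chromosome 10 from 59323197 to 59373304. It had 9325 counts (9137 to 9516) and 7947 (7773 to 8124), with FPKM 106 and 91.2 and a count ratio of 0.861 (0.836 to 0.888). P4ha2, the main alpha subunit of chondrocytes, had 98.3 FPKM in WT and 97.5 in the Prg4KO library. P4ha3, the rare alpha subunit, was higher in the Prg4KO library, at 12.5 and 16.5, with a count ratio of 1.32 (1.19 to 1.47), from counts that were not whole. Within the alpha subunits, P4ha1 made up 48.8% of the summed FPKM in WT and 44.4% in the Prg4KO library, P4ha2 45.4% and 47.5%, and P4ha3 5.78% and 8.05%. The P4hb level was 3.09 times the summed alpha subunits in WT and 3.25 times in the Prg4KO library.

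The collagen chaperones and modifying proteins stood on both sides, with 4 of 7 below the all-gene median and a group median of -0.06. Serpinh1, whose product HSP47 is specific to collagen, was the most abundant of the 39 genes and lies on chromosome 7 from 99345375 to 99353239. It had 80047 counts in WT (79493 to 80604) and 67572 in the Prg4KO library (67064 to 68083), a count ratio of 0.853 (0.844 to 0.862). Its FPKM was 1657, rank 19 of all genes, and 1411, rank 57. Fkbp10, a prolyl isomerase that acts with HSP47, had the same count ratio of 0.853, at 396 FPKM in WT and 338 in the Prg4KO library. Colgalt1, which adds galactose to hydroxylysine, had 138 and 119 FPKM, a count ratio of 0.864. These 3 stood together, at relative log2 ratios of -0.37, -0.37 and -0.35.

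The remaining members of that group were level or higher in the Prg4KO library as deposited. Crtap, the helper subunit of the prolyl 3-hydroxylase complex, had 255 FPKM in WT and 269 in the Prg4KO library. Ppib, the cyclophilin of the same complex, had 449 and 545, with a count ratio of 1.22 (1.18 to 1.25) from counts that were not whole. Its relative log2 ratio was 0.15, and 0.00 once that trend was taken out. Fkbp14, a prolyl isomerase whose loss in human causes a connective tissue disorder, had 27.9 and 32.8 FPKM, and it turned from above to below the all-gene median with the trend removed. Tmem38b, an ER cation channel whose human counterpart is a brittle bone gene, lies on chromosome 4 from 53825988 to 53862019. It had only 74 counts in WT (58.1 to 92.9) and 121 in the Prg4KO library (100.4 to 145), a count ratio of 1.65 (1.23 to 2.24), at FPKM 1.19 and 1.97.

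Against the load of fibrillar collagen, the abundant helpers Serpinh1 and P4hb gave different ratios. The 9 genes of the fibrillar collagens I, II, III, V and XI had a summed FPKM of 34363 in WT and 27539 in the Prg4KO library. They took 18.9% and 14.8% of counts. This sum mixes collagen types that differed in opposite directions as deposited. Col1a1 (11470 and 5593 FPKM) and Col1a2 (5838 and 3869) were lower in the Prg4KO library, as were the type III and V genes. Col2a1 (14594 and 15702), Col11a1 (425 and 510) and Col11a2 (620 and 719) were higher. Collagen FPKM per Serpinh1 FPKM was 20.7 in WT and 19.5 in the Prg4KO library. Collagen FPKM per P4hb FPKM was 51.3 and 41.4. The first of these ratios differed less between the libraries than the second.

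The 10 genes of COPII export were divided, with 6 above and 4 below the all-gene median. The group median was 0.03 relative to all genes, and -0.09 after removal of the length and GC trend. In the outer cage, Sec13 was higher in the Prg4KO library and Sec31a lower. Sec13, on chromosome 6 from 113728052 to 113740681, had 2263 counts in WT (2171 to 2358) and 3169 in the Prg4KO library (3060 to 3281), with FPKM 81.5 and 115. Sec31a had 149 FPKM in WT and 111 in the Prg4KO library, from counts that were not whole. The count ratios were 1.42 (1.34 to 1.49) for Sec13 and 0.747 (0.728 to 0.767) for Sec31a, although their products form the cage together. Sec13 protein also serves in the nuclear pore.

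In the inner layer, Sec23a and Sec24c lay above the all-gene median as deposited and Sec23b and Sec24d below it, but the side of Sec23a and of Sec24c depended on the processing. Sec23a, the GTPase-activating subunit whose loss disturbs the human skeleton, lies on chromosome 12 from 58958384 to 59012017. It had 2372 counts in WT (2277 to 2469) and 2676 in the Prg4KO library (2576 to 2779), with FPKM 26.5 and 30.2 and a count ratio of 1.14 (1.08 to 1.21). It lay above the all-gene median as deposited and below it with the length and GC trend removed. Its paralogue Sec23b had 24.7 and 25.1 FPKM, with an effective length that differed by -3.11% between the libraries. Sec24d, a cargo-binding subunit needed for skeletal development in fish and human, lies on chromosome 3 from 123264801 to 123365641. It had 5474 counts in WT (5330 to 5621) and 4556 in the Prg4KO library (4425 to 4690), with FPKM 64.8 and 54.4 and a count ratio of 0.841 (0.809 to 0.875). Sec24c, another cargo-binding subunit, had 13.1 and 14.5 FPKM and lay at the all-gene median, below it under 4 rescalings.

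The GTPases, the procollagen receptor and the tether completed the export genes. Sar1a had 85.4 FPKM in WT and 103 in the Prg4KO library, a count ratio of 1.21 (1.17 to 1.26). Sar1b, the paralogue needed for large lipoprotein export, had 27.0 and 33.8 FPKM, and lay below the all-gene median with the trend removed. Mia3, which encodes TANGO1, lies on chromosome 1 from 183326236 to 183369565. It had 1920 counts in WT (1835 to 2008) and 1765 in the Prg4KO library (1684 to 1850), with FPKM 12.7 and 11.8, from counts that were not whole. Its count ratio was 0.929 (0.871 to 0.992). Trappc2, which encodes sedlin, the tethering subunit mutated in a human X-linked skeletal dysplasia, lies on chromosome X from 166440702 to 166453140. It had 58 counts in WT (44.0 to 75.0) and 119 in the Prg4KO library (98.6 to 142), a count ratio of 2.07 (1.50 to 2.89), at FPKM 1.90 and 3.87, below the level filter. The effective lengths in both libraries differed by 1.63%, and its relative log2 ratio was 0.61 as deposited and 0.26 with the trend removed.

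Kdelr2 and Kdelr3, which encode KDEL receptors that return escaped chaperones from the Golgi to the ER, were close to the all-gene median. Kdelr2 had 177 FPKM in WT and 199 in the Prg4KO library. Kdelr3 had 121 and 129. Their relative log2 ratios were 0.03 and -0.04, and both were below 0 with the trend removed. Kdelr1, a KDEL receptor gene from the list of other export and retrieval genes, had 184 FPKM in WT and 154 in the Prg4KO library. Its relative log2 ratio was -0.39, and -0.44 with the trend removed.

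Shares within pairs of paralogues do not depend on the scaling between libraries. Creb3l1 made up 77.2% of the FPKM of Creb3l1 and Creb3l2 in WT and 71.3% in the Prg4KO library. Sec24d made up 83.2% and 78.9% of Sec24c and Sec24d, and Sec23a 51.8% and 54.6% of its pair. Sar1a made up 76.0% and 75.4%, Kdelr2 59.4% and 60.6%, and Fkbp10 93.4% and 91.1% of Fkbp10 and Fkbp14. In each of these pairs the paralogue with the larger share was the same in both libraries. Kdelr1, left out of the KDEL receptor pair, stood above Kdelr2 in WT (184 and 177 FPKM) and below it in the Prg4KO library (154 and 199). Of the alpha subunits, P4ha1 led by FPKM in WT and P4ha2 in the Prg4KO library, but by counts, which do not correct for length, P4ha1 led in both at 63.0% and 58.7%.

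**Figure D3:**
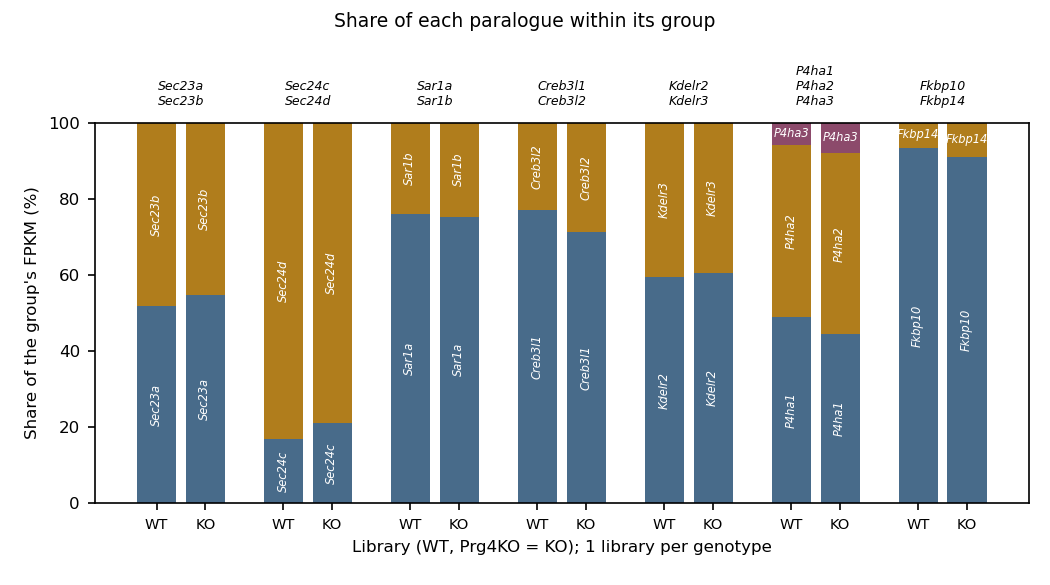
Share of the summed FPKM (%) taken by each paralogue within its group, in the WT and the Prg4KO library (KO), with 1 library per genotype and no error bars. The leading paralogue of those shown is the same in both libraries in all 7 groups but the P4ha genes. There P4ha1 leads at 48.8% in WT and P4ha2 at 47.5% in Prg4KO. Kdelr1 is not shown.

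Lists of other genes of the route had medians nearer to that of all genes than the general chaperones had, collagen genes apart. The gap to the other ER folding genes was narrower at a larger FPKM of at least 20, with medians of -0.21 for these and -0.26 for the general chaperones. Among 21 other ER folding genes, 13 lay below, with a median of -0.19, from Manf, an ER stress-induced secreted factor (100.2 FPKM in WT and 70.3 in the Prg4KO library), to Ero1l, the oxidase that recharges disulfide isomerase (7.69 and 11.04). Among 24 ER stress sensors and degradation genes, 17 lay below, with a median of -0.18. The lowest was Syvn1, the ubiquitin ligase of ER-associated degradation and itself a carrier of ERSE, at 47.3 and 33.5 FPKM, and the highest was Trib3, a target of the PERK branch, at 33.0 and 49.98. Of 34 other export and retrieval genes 20 lay below, with a median of -0.06, from Sec24b (18.1 and 14.9) to Trappc6b (10.7 and 18.1). The 8 other collagen-modifying enzymes had a median of -0.08, and 0.04 with the trend removed, from the lysyl hydroxylase gene Plod1 (99.2 and 80.0) to the prolyl 3-hydroxylase gene P3h2 (16.3 and 24.5). The 21 translocon and signal peptide genes, through which every secreted chain enters the ER, were divided at 11 above and 10 below, with a median of 0.01 that changed sign under 6 other settings. They ran from the signal recognition receptor gene Srpr (122 and 98.5) to the signal recognition particle gene Srp14 (34.3 and 58.6). In these 5 lists 0 genes passed the 2-fold limit, which 0.462% (higher) and 0.109% (lower) of all genes passed. At 1.5-fold, 3 translocon genes and 2 export genes were higher and 0 were lower, where 6.31% and 1.52% of all genes were.

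The collagen cargo genes had the lowest median of the lists. Of 18 genes 12 lay below the all-gene median, the list median was -0.55 relative to it and -0.29 with the trend removed, and the list took 21.2% of WT counts and 17.1% of Prg4KO counts. The list was split by type, so its median describes neither part. All genes of collagens I, III, V, VI, XII and XIV lay below the all-gene median. All of IX, X and XI lay above it, and Col2a1 was at -0.03. At 1.5-fold, 2 genes were higher and 7 lower, where 6.31% and 1.52% of all genes were. The lowest was Col1a1, with 11470 FPKM in WT and 5593 in the Prg4KO library, the 1 gene of these lists past 2-fold, and the highest was Col9a1, a cartilage collagen, with 709 and 1115. Type I and III collagen, which the tendon and fibrous marker list also holds, took 10.5% of WT counts and 5.88% of Prg4KO counts. Differences between these lists were not tested, since the design has 1 library per genotype.

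**Figure D4:**
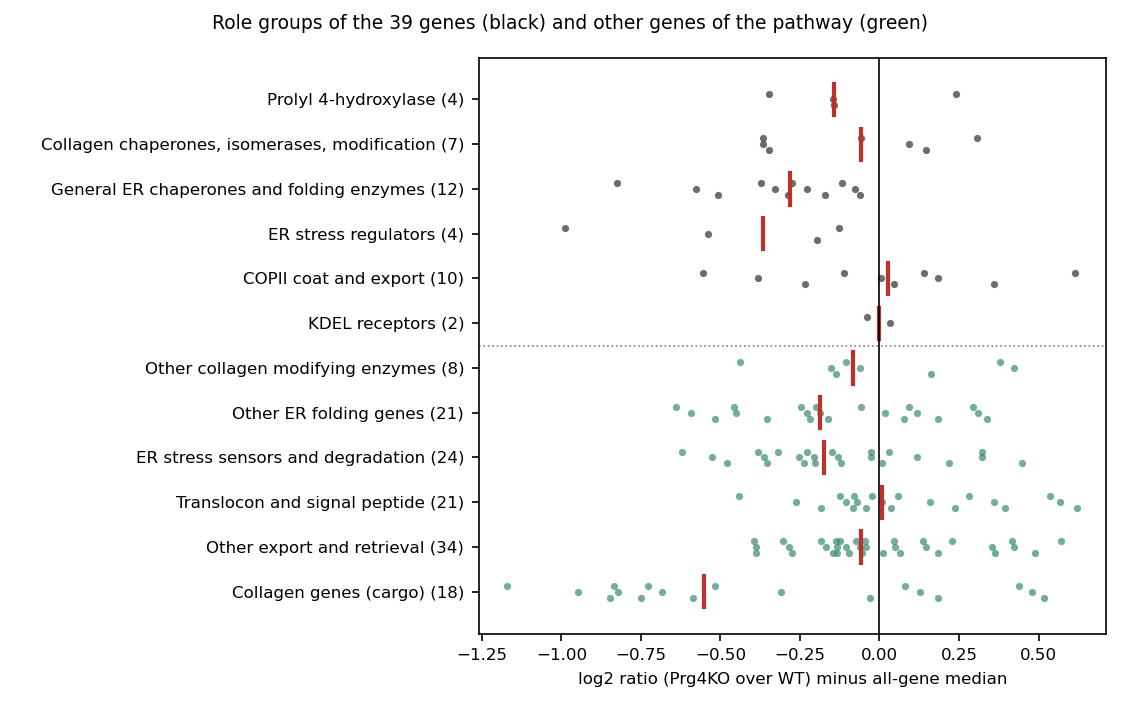
Log2 ratio (Prg4KO over WT, FPKM plus 1) minus the all-gene median for each gene of the 6 role groups (black) and of 6 other lists of the pathway (green), with the number of genes in brackets and red bars at the medians. General ER chaperones (-0.28), ER stress regulators (-0.37) and collagen genes (-0.55) have the lowest medians, and COPII genes scatter around 0.03.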

How the data were processed

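Polyadenylated RNA was measured in 1 WT and 1 Prg4KO library. Per the file headers, the deposited table holds expected counts and FPKM for each library, and RSEM, HISAT2, Bowtie2 and build mm10 are named, without versions, in the submitters' processing notes. Counting options and strand use are not stated in these sources, and reads of overlapping genes or near-identical copies cannot be told apart. Among the 39 genes, 5 had expected counts that were not whole (Ppib, Fkbp10, P4ha3, Mia3, Sec31a). Expected counts summed to 21619093 and 21392574, and count intervals cover counting error only.

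The Prg4KO columns hold 15973 rows against 15719 named genes and lose register after row 20: log2 FPKM correlated across genes at r = 0.960 before and 0.0841 after. Rows were re-paired from row order and effective length (count over FPKM) with a pair hidden Markov model. It was tested on data simulated under similar assumptions about order and length, so the test does not cover departures from them. Pairs with a probability of at least 0.95 covered 14812 genes (94.2%), and their log2 FPKM correlated at r = 0.981 (genes are no independent replicates). Over 1709 genes with 1 transcript, lengths within a pair differed by a median of 0.00498%. Rows were matched on this length, so the small difference is no independent check of the pairing.

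Log2 ratios used a pseudocount of 1, and a gene past a limit had to reach FPKM 5 in 1 library. A trend with length and GC content, which held 26.8% of the variance of the ratios over 6639 genes, was removed as an alternative. TMM factors came from rounded expected counts (edgeR 4.0.16, R 4.3.3). Other steps used Python 3.11.15, numpy 2.4.6 and scipy 1.17.1. The other alternatives were pseudocounts, level filters, rescalings, counts in place of FPKM, a stricter pairing and a single best alignment. Gene coordinates are GRCm38, and promoters are from RefSeq on GRCm38.p6. All 39 genes are named by role. Full counts are given for 10 chosen by role, the 3 highest and the 3 lowest log2 ratios, and of the other lists the highest and lowest genes that reached FPKM 5. The genes and lists were chosen with earlier results of these data known.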

Additional observations from a re-analysis of the deposited data

How the results depend on the processing

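The count of the 39 genes past 2-fold was 0 as reported and 0 under most alternatives. It was 1, Creb3l1, when the libraries were scaled without the 20 most abundant genes or with TMM factors. Of all genes passing the filter, 0.281% and 0.266% were 2-fold lower there. The count was 2, Calr and Creb3l1, at the 1.5-fold limit added after the values were seen. With either of those rescalings, 4 genes were 1.5-fold lower, with Sdf2l1 and Sec31a added, against 3.74% and 3.5% of all genes. Trappc2 was 1.5-fold higher at a larger FPKM of at least 1 and with no level filter, against 0 higher as reported. Of all genes, 5.83% and 4.5% were 1.5-fold higher in these settings. The number above the all-gene median was 11 as reported, 7 at a larger FPKM of at least 20, where fewer genes were counted, and 7 without the length and GC trend. Relative to all genes, Sec23a, Fkbp14, Sar1b and Kdelr2 changed side without it, and Sec24c under each of the 4 rescalings. The cause was not tested. Leaving out a replicate was not possible, and no paired analysis was possible because each group had 1 library. Depth limited Tmem38b and Trappc2 most.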
